A study of Mus musculus with 9 samples.

Results

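Lungs of mice ventilated at high pressure were compared with control lungs across the whole array, with attention to genes other than the classic cytokine, chemokine and immediate early genes. The study concerns lung injury caused by mechanical ventilation and holds 9 expression arrays of mouse lung tissue. The 6 compared here, 3 labelled overventilation and 3 labelled control, were chosen by those labels. Overventilation means mechanical ventilation at a pressure of 25 cmH2O for 3 h. The remaining 3 arrays come from mice injected with lipopolysaccharide (LPS), a bacterial cell wall component, at 3 mg/kg. They enter only through the shared estimate of spread and where they are named. The labels give no strain, age or sex, do not say whether the controls were ventilated, and do not state that each sample is a different mouse. P-values therefore reflect the spread among the arrays alone, and that spread may be technical.

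Ventilation at high pressure overstretches the air spaces. Epithelial and endothelial cells are strained, their junctions open, fluid leaks into the alveoli, and the cells start inflammatory and repair programmes within hours. Strain is sensed at focal adhesions, cell junctions and the cytoskeleton, which are linked to growth factor receptors and transcription factors. In whole lung these responses are summed over epithelium, endothelium, fibroblasts, smooth muscle and blood cells, so fewer cells of a type and less RNA per cell cannot be told apart.

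The deposited values are ratios to the mean of the controls. Every value below is a log2 ratio with the control mean at 0, and no level of one gene can be set against another. Of 10012 probes, 5710 were tested, which stand for 5089 named genes with 1 probe each. Each array has a floor, its lowest reportable value, and 42.4% of probes were at it on overventilation array 3, against 27.8% to 39.4% on the other 8 arrays. Below, a value is called at the floor where it lies at or below the highest of the array floors. That is the floor of overventilation array 3, a ratio of 2.222, against 0.709 to 1.32 on the other 8 arrays. A floor that only 1 array reached at a probe could not be recognised. Between the overventilated arrays the correlation across the probes without a known floor was 0.338 for arrays 1 and 2, 0.620 for 1 and 3, and 0.573 for 2 and 3. With LPS arrays 1 to 3 overventilation array 2 correlated at 0.068, 0.560 and 0.573, and overventilation arrays 1 and 3 at 0.037 to 0.322. Array 2 was thus closer to LPS arrays 2 and 3 than to overventilation array 1. A second tested probe existed for 66 genes, and it had the same sign of difference as the chosen one at 26 of them. At the 17 of these genes whose chosen probe did not overlap between the groups, the second probe had the same sign at 3. A gene's value is thus the value of 1 probe, under the name that the platform annotation gives it. Some of these names may be wrong for their probe, which was not tested.

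No probe passed limma's test at an adjusted p of 0.05 (0% of 5710 probes), and the lowest adjusted p was 0.0828. At an unadjusted p under 0.05 there were 850 probes, 354 higher and 496 lower after overventilation. Without overventilation array 2, 290 probes passed, 271 of them lower, and 139 of the 290 were low on arrays 1 and 3 alone, a pattern described further on. Genes are therefore described by whether the groups overlap. In 468 genes, 9.2% of those tested, all 3 overventilated arrays lay above all 3 controls, and in 535 genes, 10.5%, all 3 lay below. These shares are the background for every count below. The median difference over all 5089 genes was -0.02. A gene is said to rest on 1 array where leaving out 1 of the 6 arrays turned the sign of its difference or cut it to less than 0.5 of its size. That held for 58 of the 1003 genes without overlap, 36 of them through overventilation array 3. The classic cytokine, chemokine and immediate early genes, 29 of 77 higher and 3 lower, are not described below, but stay in counts over all genes and in the motif counts. Limma's adjusted p lay between 0.1925 and 0.871 for the 159 genes chosen to be named, so the differences below are sizes and orders of arrays, none of which passed the test.

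The tissue label was set against marker genes. Of 14 lung epithelial markers on the array 12 were tested, and their mean lay between -0.09 and 0.17 on the controls and between -0.41 and 0.97 on the overventilated arrays. Among them Ager, a marker of flat alveolar type 1 cells, lay above all controls and Napsa, a protease of type 2 cells, below by 2.13, but a second probe of Napsa differed by 0.48. Foxj1, the factor of ciliated cells, was at or below the highest array floor on all 6 arrays, as were Cdh5 and Pecam1 of the endothelium and Adgre1 of macrophages. Of 9 neutrophil markers 4 were tested, with means of -0.83 to -0.11 on the overventilated arrays and -0.48 to 0.26 on the controls. Cxcr2, Elane and Mmp9 were at the floor throughout. The 5 fat tissue markers tested had means of 0.66 and 0.64 on control arrays 1 and 2, -1.29 on control array 3, and -1.69 to -0.75 after overventilation. The 4 fibroblast markers tested (Dcn, Mfap4, Pdgfra and Tcf21) had means of -0.75 to -0.18 after overventilation and -0.10 to 0.06 in the controls, with Tcf21 alone below all controls. Of 8 heart and skeletal muscle markers Myl4 and Ryr2 lay above all controls, by 0.83 and 0.74. Tnni2, a fast muscle troponin that lay below and rests on control array 3, read 2.44 on control array 3 and -1.23 and -1.21 on the other controls.

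The highest genes outside the classic class serve energy exchange, signalling, protein synthesis and detoxification. Slc25a5, which exchanges ATP and ADP across the inner mitochondrial membrane, read 2.89, 2.50 and 5.04 on overventilation arrays 1 to 3 and 1.35, -0.81 and -0.54 on the controls. The difference was 3.48 ± 0.81 (SE of the limma fit, n = 3 against 3), or 11.1-fold. Gsta2, a glutathione transferase that conjugates electrophiles, read 2.24, 2.50 and 3.91 against 0.28, 0.12 and -0.40. All 3 values stood at least 1.96 above the highest control, with a difference of 2.88 ± 0.49, or 7.38-fold. Noct, the RNA-level regulator nocturnin, read 2.98, 2.23 and 3.03 against 0.68, -0.29 and -0.39, a 6.72-fold difference that was of like size on the 3 arrays. Sgk1, a kinase induced by glucocorticoids and osmotic stress that keeps sodium channels at the cell surface, read 1.59, 2.47 and 3.45 against -0.31, 1.09 and -0.79, 5.66-fold higher. The polarity kinase Prkci read 1.16, 2.46 and 3.88 against -0.31, 0.14 and 0.17, a 5.65-fold difference with its lowest value on array 1 and its highest on array 3.

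Several genes of this group were highest on overventilation array 3. This is not particular to them: that array stood more than 1.5 above all other arrays at 110 tested probes, and overventilation arrays 1 and 2 at 0. It also had the highest floor, and the part of that floor in these values was not tested. Rasip1, which binds Rap1 and holds endothelial cells together, read 1.13, 2.48 and 4.34 against -0.77, 0.86 and -0.09. Map2k3, a kinase that activates p38, read 1.47, 2.35 and 4.25 against -0.28, 0.55 and -0.27. Lyz2, the lysozyme of macrophages and alveolar type 2 cells, read 1.73, 1.19 and 4.77 against 0.83, 0.03 and -0.86, and Eef1a1 read 1.60, 1.73 and 5.60. In these 4 genes array 3 stood highest by 1.86 or more, and without it the differences were 1.80 for Rasip1, 1.91 for Map2k3, 1.46 for Lyz2 and 1.67 for Eef1a1. Tnfrsf12a, the strain-responsive receptor for TWEAK, read 2.38, 2.68 and 5.24 against -0.19, -0.05 and 0.24. Without array 3 its difference was 2.53 in place of 3.43, and that of Slc25a5 was 2.70 in place of 3.48. Tnfrsf12a, Akap12 and the interferon-induced Mx2 complete the 12 highest, with differences of 3.43 ± 0.71, 3.31 ± 0.72 and 3.08 ± 0.60.

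**Figure D1:**
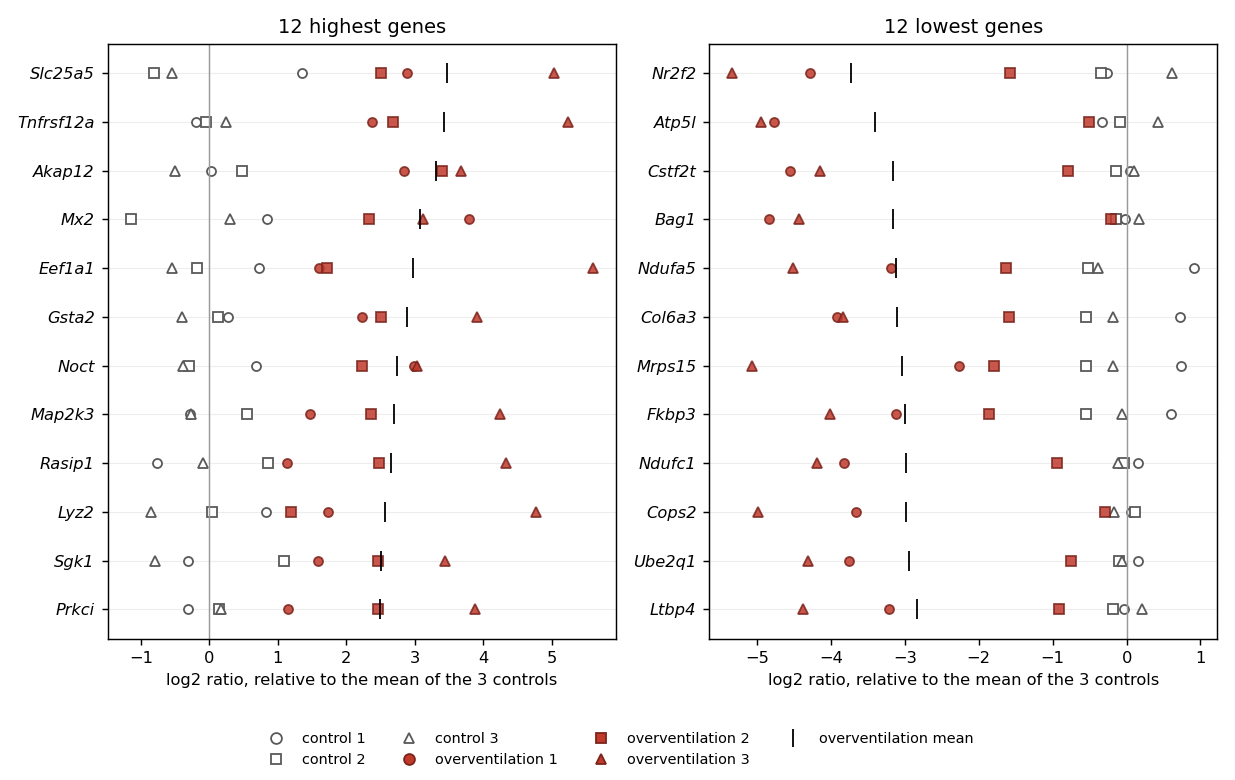
Log2 ratios on each array for the 12 genes with the highest and the 12 with the lowest mean difference, classic cytokine and immediate early genes left out; open symbols are the 3 controls, filled symbols the 3 overventilated arrays and the bar their mean. On the right, overventilation array 2 (squares) lies near the controls for genes such as Bag1 (-0.20) while arrays 1 and 3 lie at -4.84 and -4.43.

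Members of 39 gene lists were then counted, with the count of genes above and below all controls read against 9.2% and 10.5%. The lists with the highest share of members above the controls were axon guidance molecules (25.9% of 27), tubulins and microtubule proteins (21.7% of 23), translation factors (21.4% of 28) and Toll-like receptors and their adapters (20.6% of 34). The highest shares below the controls were in apoptosis regulators (21.4% of 42) and fatty acid oxidation (20.7% of 29). With a list of this size each member adds 2.38 to 4.35 percentage points, and the lists were not tested as sets. In 11 lists 1 or 2 of the members counted rest on 1 array. Leaving out 1 array makes non-overlap easier, and without overventilation array 2, where 20.7% of all genes lay below, the members below were 5 of 23 tubulin genes, 11 of 51 splicing factors, 14 of 42 p53 and repair genes and 13 of 47 histone and chromatin genes, against 1, 4, 7 and 3 with all arrays.

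**Figure D2:**
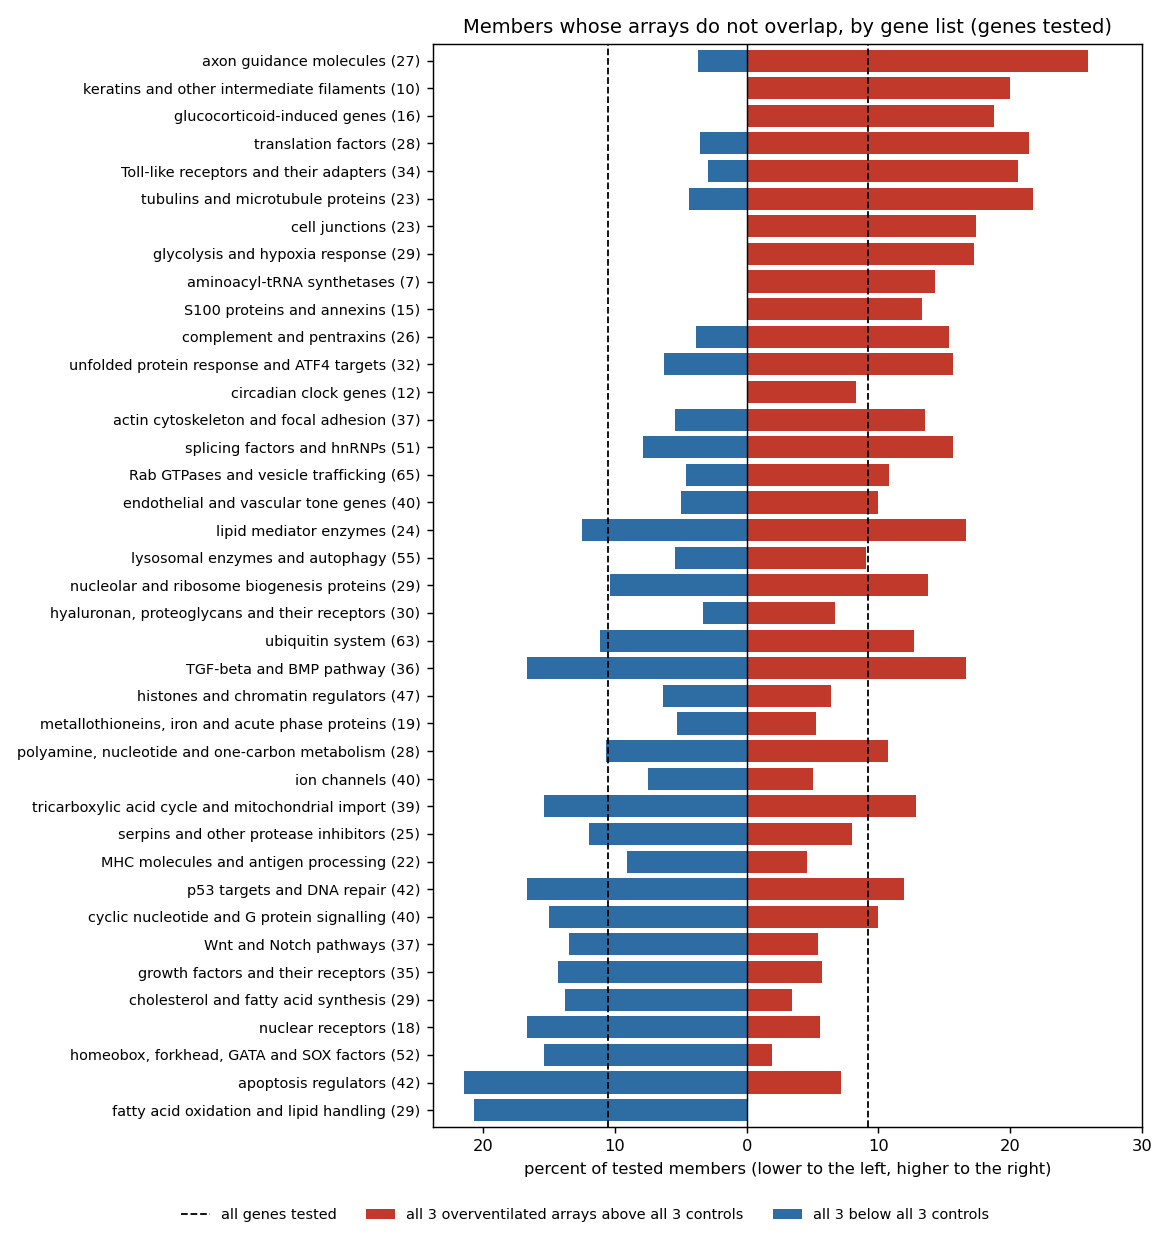
Percent of tested members of each of the 39 lists whose 3 overventilated arrays lie above (right) or below (left) all 3 controls, with the number of genes tested in brackets and dashed lines at 9.2% and 10.5%, the shares over all 5089 genes. Axon guidance molecules reach furthest to the right and apoptosis regulators furthest to the left.

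Of 37 actin cytoskeleton and focal adhesion genes, 5 lay above all controls and 2 below, with a median difference of 0.12, and of 0.28 without array 3. Zyx, the focal adhesion protein zyxin that moves onto strained stress fibres, read 0.56, 1.40 and 2.11 against 0.09, 0.27 and -0.35, 2.56-fold higher. Vasp, its partner in actin assembly, read 0.76, 1.44 and 2.34 against -0.65, 0.67 and -0.03, 2.85-fold higher. Ezr, which ties actin to the plasma membrane, read 0.93, 0.99 and 1.35 against 0.53, 0.17 and -0.70. The 3 genes shared an order, lowest on array 1 and highest on array 3. Coro1b and the smooth muscle tropomyosin Tpm2 were the members below, at differences of -0.60 ± 0.34 and -0.34 ± 0.40.

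Of 23 tubulin and microtubule genes 5 lay above all controls and 1 below. Tubb6, a beta-tubulin, read 2.01, 1.75 and 2.33 against -0.34, -0.14 and 0.48, a difference of 2.03 ± 0.49 or 4.09-fold, and the 3 arrays lay within 0.57 of each other. Tuba1c, an alpha-tubulin, read 1.35, 1.23 and 2.96 against -0.04, 0.41 and -0.38, 3.60-fold higher. Tubb2b read 0.76, 1.78 and 3.97, and Dctn2, a subunit of the dynein adaptor dynactin, and Stmn1, which releases tubulin from microtubules, also lay above the controls. Tbca, which helps fold beta-tubulin, was the 1 member below, at -3.57, -0.36 and -2.55. The median over the 23 tested members was 0.32, and 0.14 without array 2, and tubulin genes are close relatives whose probes could share signal. Of 10 keratins and other intermediate filament genes Krt19, an epithelial and mesothelial keratin, and Krt71 lay above, with differences of 1.19 ± 0.51 and 0.45 ± 0.28. Of 15 S100 proteins and annexins the membrane-repair annexins Anxa1 and Anxa2 lay above all controls. Anxa1, which also limits neutrophil entry, read 1.94, 1.08 and 1.87 against 0.12, 0.14 and -0.27, and Anxa2 read 1.29, 1.46 and 2.29 against 0.68, -0.02 and -0.66. The other 13 overlapped, and the list's median was -0.26, between -0.54 and -0.10 when 1 array was left out.

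Junction genes followed, with 4 of 23 above all controls and 0 below, where all genes gave 9.2% and 10.5%. Cdh1, the E-cadherin of epithelial adherens junctions, read 1.27, 2.21 and 3.71 against -0.26, 0.80 and -0.54, a difference of 2.40 ± 0.63 or 5.27-fold. Cldn4, a claudin that tightens alveolar epithelium, read 2.40, 1.67 and 1.26 against 1.07, -1.07 and -0.01, 3.43-fold higher, with the order of the arrays opposite to that of Cdh1. Gja4, a connexin of arterial endothelium, read 0.56, 0.61 and 1.95 against -0.83, 0.47 and 0.36. Gjb2, an epithelial connexin, read 1.35, 1.07 and 1.65 against -1.38, 0.97 and 0.41, and its difference rests on the low value of control array 1.

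AP-1, the Fos and Jun dimer, is the transcription factor whose subunits belong to the immediate early class, and its motif TGANTCA was searched on both strands in the 250 bases before the start of each gene (RefSeq, GRCm38.p6). The motif is palindromic apart from its middle base, so both strands give the same matches. It occurred in 6.75% of 32851 such windows, in 5.16% of the 4088 tested genes with a window, and in 9.44% of 339 genes above all controls that do not rest on 1 array. The 339 are those with a window among 435 genes, 28 of which are classic cytokine, chemokine or immediate early genes. Such genes were not removed from the set below all controls either. Among 416 genes below all controls the share was 3.365%. It was 0 of the 10 matched among the 12 highest genes and 1 of 12 among the 12 lowest. Of 128 named genes, which lie on both sides, 6.25% held the motif. These 8 were Anxa2, Cldn4, Ezr, Nme1, Serpinb2 and Zyx above all controls, and Ndufa5 and Tomm34 below. A match is a string of letters and was not tested as a site. The cyclic AMP response element TGACGTCA occurred in 3.54% of the 339 genes and 2.74% of the 4088, and the NF-kB motif GGNNTTTCC in 7.08% and 5.01%, against 1.55% and 4.93% of all windows. These motifs were chosen after values were seen, and a longer form of the NF-kB motif and windows reaching past the gene start had been searched first. Windows of 3 structural genes above all controls are shown because they hold AP-1 matches, which are in capitals: Cldn4 at chr5:134946935-134947184 (minus strand, 2 matches), Zyx at chr6:42349578-42349827 (plus strand) and Anxa2 at chr9:69453433-69453682 (plus strand).
Cldn4: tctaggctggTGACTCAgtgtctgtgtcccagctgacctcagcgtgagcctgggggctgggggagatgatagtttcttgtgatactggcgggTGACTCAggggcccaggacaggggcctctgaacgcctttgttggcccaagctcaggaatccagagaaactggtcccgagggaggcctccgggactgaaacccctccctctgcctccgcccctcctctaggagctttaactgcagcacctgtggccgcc
Zyx: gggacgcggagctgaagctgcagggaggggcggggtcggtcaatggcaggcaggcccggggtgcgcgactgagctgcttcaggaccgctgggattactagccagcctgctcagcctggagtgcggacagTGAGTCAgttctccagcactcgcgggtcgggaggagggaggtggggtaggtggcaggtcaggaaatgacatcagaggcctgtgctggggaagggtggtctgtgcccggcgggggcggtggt
Anxa2: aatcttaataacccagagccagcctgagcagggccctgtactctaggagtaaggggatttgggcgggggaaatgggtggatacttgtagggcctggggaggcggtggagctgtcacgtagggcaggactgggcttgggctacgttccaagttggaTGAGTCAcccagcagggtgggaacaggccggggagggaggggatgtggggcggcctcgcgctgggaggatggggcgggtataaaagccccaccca

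Receptors and ligands that steer cell movement had the highest share above the controls, 7 of 27, with Sema5b the 1 member below. Plxna2, a semaphorin receptor, read 1.84, 1.83 and 2.62 against 0.60, -0.18 and -0.42, a difference of 2.10 ± 0.49 or 4.28-fold. Epha2, an ephrin receptor that loosens endothelial and epithelial junctions, read 1.30, 1.01 and 1.64 against 0.05, 0.36 and -0.41, 2.49-fold higher. Ephb4, the venous ephrin receptor, and the semaphorin Sema3c read 0.50, 0.67 and 1.17, and 0.99, 1.10 and 1.18. These 4 genes kept close values on the 3 overventilated arrays. Epha3, Sema5a and Sema4f were above by 0.46 to 0.52. The other 19 overlapped the controls, and the median over the 27 genes was 0.06, between -0.05 and 0.29 when 1 array was left out. Without overventilation array 3 the counts were 9 above and 3 below, where all genes gave 11.3% and 13.4%.

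Of 40 endothelial and vascular tone genes 4 lay above and 2 below, close to the background. Vcam1, the adhesion molecule for leukocytes, read 1.54, 2.27 and 3.45 against -0.17, 0.77 and -0.60, 5.35-fold higher. Selp, the P-selectin of activated endothelium, read 1.10, 1.04 and 0.81 against 0.25, -0.14 and -0.12, and the semaphorin and VEGF co-receptor Nrp1 read 0.45, 1.14 and 2.81. The members below were Sox18, a factor of lymphatic and arterial fate, at -1.42, -1.19 and -0.68 against -0.50, 0.29 and 0.22, and Flt4, the VEGF-C receptor, at -0.80, -0.43 and -1.02 against -0.06, 0.11 and -0.04. The mean of the 6 endothelial markers tested was 0.06 to 0.18 on the overventilated arrays and -0.25 to 0.39 on the controls.

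The TGF-beta and BMP pathway held 6 of 36 genes above and 6 below all controls. Those above include 4 ligands, and those below include 3 receptors and the ligand Gdf5. Other tested ligands and receptors, such as Bmp4, Tgfb2, Bmpr2 and Tgfbr2, overlapped the controls. Inhba, the subunit of activin A, read 1.48, 1.28 and 1.28 against -0.41, 0.30 and 0.11, 2.54-fold higher. Bmp2, Tgfb1 and Nodal were also above, by 1.03, 0.81 and 0.54. Among receptors Acvrl1, the BMP9 receptor ALK1 of endothelium, read -0.99, -1.38 and -2.28 against 0.39, -0.03 and -0.35, a difference of -1.55 ± 0.40 or 2.93-fold lower. The activin receptor Acvr2b read -0.62, -1.55 and -1.14 against 0.30, -0.34 and 0.04, and Acvr1b was below by 0.73. The ligand Gdf5, Ltbp4, which stores TGF-beta in the matrix, and the ubiquitin ligase Smurf2, which rests on overventilation array 3, complete the members below, and Id3 and Smad2 those above.

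In the Wnt and Notch pathways 2 of 37 genes lay above and 5 below. Wnt3a read -1.61, -2.48 and -2.60 against 1.09, -0.67 and -0.42, a difference of -2.23 ± 0.55 or 4.68-fold lower. Heyl, a Notch target in vascular smooth muscle, read -1.57, -1.42 and -0.92 against -0.12, -0.12 and 0.24, 2.47-fold lower. The Notch ligand Dll3 and Wnt7a were below by 0.84 and 1.05, while Notch4 of endothelium was low on arrays 1 and 3 only (-3.60 and -3.87, with -0.61 on array 2). Sfrp4 and Numbl, a Wnt and a Notch inhibitor, were the members above.

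Growth factors and their receptors had 2 of 35 above and 5 below. Ereg, an EGF receptor ligand, read 2.47, 1.98 and 1.03 against 0.79, -0.13 and -0.66, 3.55-fold higher, and Bdnf read 1.18, 1.92 and 1.13 against 0.09, 0.71 and -0.80. Nrtn, a GDNF family ligand, read -0.87, -0.99 and -1.68 against -0.01, -0.01 and 0.03, 2.27-fold lower. Errfi1, the inhibitor that binds the EGF receptor, read 2.14, 2.07 and 1.82 against -0.35, 0.05 and 0.31, a difference of 2.01 ± 0.56, with the 3 arrays within 0.32 of each other. It is one of the glucocorticoid-induced genes, of which 3 of 16 lay above and 0 below, together with Sgk1 and Ddit4.

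Homeobox, forkhead, GATA and SOX factors set cell identity, and 1 of 52 lay above all controls and 8 below. Pbx2, a partner of HOX proteins, read -2.07, -1.51 and -1.55 against -0.06, -0.30 and 0.36, a difference of -1.71 ± 0.31 or 3.27-fold lower. Meis1, which binds PBX proteins, read -1.23, -1.41 and -2.52 against 0.58, -0.66 and 0.09, 3.29-fold lower. Hoxb13, Hoxd10 and Hoxb5 were below by 0.94, 1.05 and 0.57. Of the 52 members 43 overlapped the controls, and the median over all 52 was 0.00. Dlx2 was the member above. The fibroblast marker mean was lower on the overventilated arrays, as given above, and its part in these counts was not tested. Without overventilation array 1 the counts were 7 above and 11 below, where all genes gave 18.7% and 16.3%. Of 18 nuclear receptors and coregulators, Ncoa6 lay above and Esr2, Ncoa1 and Nr2f2 below.

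**Figure D3:**
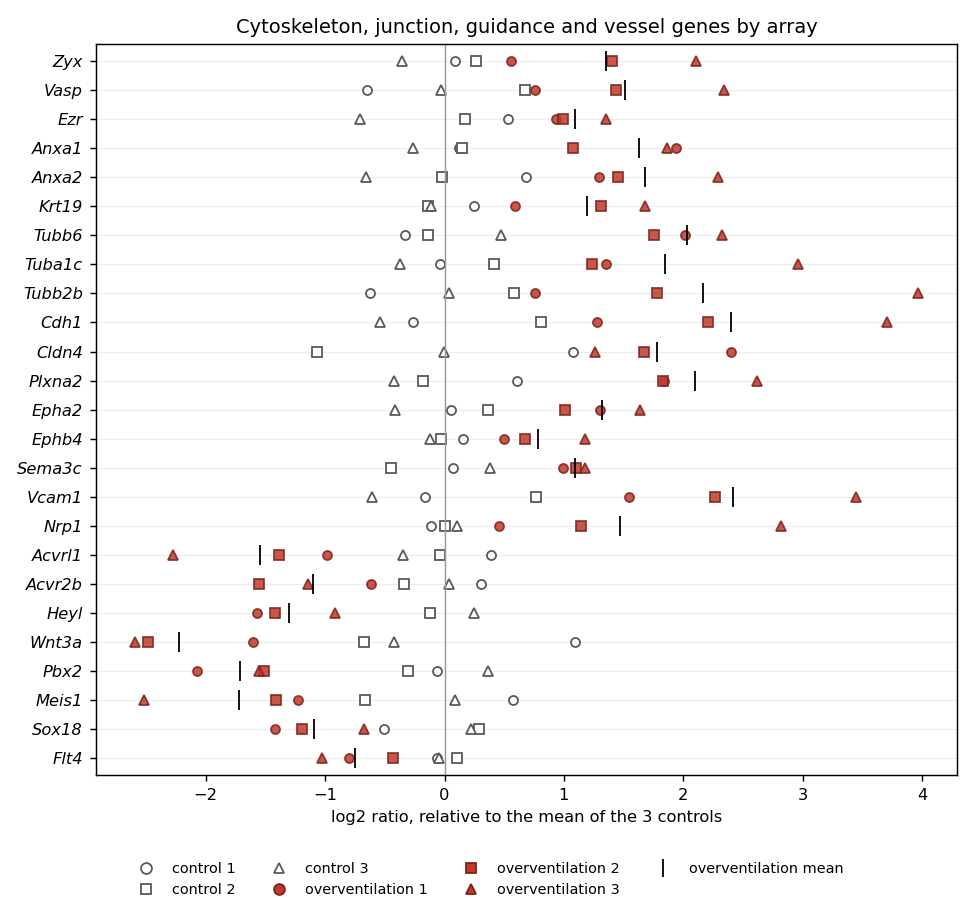
Log2 ratios on each array for 25 genes of the cytoskeleton, junctions, guidance, vessels and developmental factors named in the text; open symbols are the 3 controls, filled symbols the 3 overventilated arrays and the bar their mean. All 25 have no overlap between groups, and Sox18 has the narrowest gap of those below, from -0.50 on a control to -0.68.

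Innate immune sensors other than cytokines included 7 of 34 Toll-like receptor and adapter genes above all controls and 1 below. Clec4e, the C-type lectin Mincle that senses mycobacterial lipid and dead cells, read 2.48, 1.70 and 2.03 against 0.87, 0.11 and -0.98, a difference of 2.07 ± 0.49. Traf4, Irf1 and Map3k8 lay above by 0.84, 0.91 and 1.02, and Tlr2, the lipoprotein receptor, read 0.85, 0.90 and 0.19 against -0.07, -0.01 and 0.08. Irf7 rests on array 1. Tlr6, the partner of TLR2, read -1.36, -0.99 and -1.67 against -0.28, 0.12 and 0.17, 2.53-fold lower, so the partners of this receptor lay on opposite sides of the controls. Of 26 complement genes Cr1l, Cd93, the C5a receptor C5ar1 and Cr2 lay above and the membrane protector Cd59a below. Cd59a was at the floor on overventilation arrays 1 and 3. MHC and antigen processing had 1 of 22 above, H2-M10.1, and 2 below, Cd1d1 and Rfxank, a subunit of the factor that drives MHC class II genes, at -1.05, -2.27 and -1.13 against -0.20, 0.04 and 0.16.

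Lipid mediator enzymes had 4 of 24 above and 3 below. Ptges, the inducible prostaglandin E synthase, read 1.04, 0.58 and 1.84 against -0.23, -0.04 and 0.27, 2.22-fold higher. Alox12b and Alox15, which are lipoxygenases, and Cyp4f13 were below by 1.15, 0.81 and 0.98. Of 25 serpins and other protease inhibitors, Tfpi2 and Serpinb2 lay above and Serping1, Serpinb6b and Serpina12 below. Tfpi2, a plasmin and factor VIIa inhibitor, read 2.34, 2.38 and 1.77 against 0.84, 0.61 and -1.46, and Serping1, the C1 inhibitor, read -0.50, -0.78 and -1.22 against 0.25, 0.16 and -0.41. Of 30 hyaluronan and proteoglycan genes, the heparanase Hpse and Ugdh, which makes the sugar for hyaluronan, lay above and the syndecan Sdc2 below, by 0.99, 0.97 and 1.32.

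Ion channels had 2 of 40 above and 3 below. Cftr, the chloride channel of airway epithelium, read 1.34, 2.28 and 1.68 against -0.79, 1.34 and -0.55, 3.40-fold higher, although control array 2 came within 0.000969 of array 1. Among 40 genes of cyclic nucleotide and G protein signalling, 4 lay above and 6 below. Crem, a cyclic AMP responsive factor, read 1.69, 1.38 and 2.29 against -0.59, 0.54 and 0.05, 3.45-fold higher, and the adenylyl cyclases Adcy6 and Adcy7 lay below by 1.31 and 0.49.

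Genes that make proteins were among those above. Of 28 translation factors 6 lay above all controls and 1 below, and without array 3 the counts were again 6 and 1, where all genes gave 11.3% and 13.4%. Without array 2 they were 9 and 6, where all genes gave 13.9% and 20.7%. Eef1a2, an elongation factor of muscle and nerve, read 1.21, 1.60 and 3.44 against -0.36, 0.01 and 0.35, 4.24-fold higher. Eif5a, which frees stalled ribosomes, read 1.30, 1.62 and 4.48 against -0.01, 0.53 and -0.52, 5.54-fold higher. Eif4a1, the helicase that opens mRNA leaders, read 1.45, 1.58 and 3.64 against -0.17, 0.75 and -0.57. Array 3 was highest for all 3 by 1.84 or more. Eef1e1 and the ribosome assembly factor Eif6 were above by 1.79 and 0.81. Eif2ak4, the kinase GCN2 that slows initiation when amino acids are short, read -0.66, -0.60 and -0.81 against 0.23, 0.16 and -0.39. The list's median was 0.23, and 0.13 without array 2.

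Of 32 genes of the unfolded protein response and ATF4 programme 5 lay above and 2 below, with a median of 0.41 against -0.02 over all genes. The median was 0.21 without overventilation array 3 and 0.25 without control array 3. Ddit4, a brake on mTOR, read 1.20, 1.16 and 2.73 against 0.06, 0.44 and -0.49, 3.25-fold higher. Asns, the asparagine synthetase, read 1.44, 0.76 and 1.27 against 0.44, -0.25 and -0.19, and Ern1, the sensor IRE1, read 0.61, 0.75 and 0.80 against -0.14, 0.02 and 0.11. Ddit3 (CHOP) was above by 0.56 ± 0.32 and the chaperone Calr by 0.46 ± 0.28. Its membrane-bound relative Canx read -1.99, -0.72 and -1.77 against 0.37, -0.25 and -0.12, but a second probe of Canx differed by 0.22. Dnajc3, the other member below, was low on arrays 1 and 3 alone, at -3.43 and -3.27, with -0.37 on array 2. Of 7 aminoacyl-tRNA synthetases Nars lay above, by 0.94.

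Nucleolar and ribosome assembly genes divided, with 4 of 29 above and 3 below. Nop58, a core protein of box C/D particles, read 1.01, 1.53 and 2.48 against -0.03, 0.41 and -0.38, 3.20-fold higher, while Nop10 of the box H/ACA particles read -3.01, -1.84 and -2.19 against 0.90, -0.26 and -0.64, 5.09-fold lower. Splicing factors and hnRNPs had 8 of 51 above and 4 below. Srsf5 read 1.45, 1.42 and 2.40 against -0.16, 0.58 and -0.43, a difference of 1.76 ± 0.39 or 3.38-fold, and Clk4, a kinase of SR proteins, read 1.26, 1.65 and 1.15 against -0.30, 1.08 and -0.78. Hnrnph1, Hnrnpdl and Hnrnpm were above by 0.93, 0.83 and 0.41, while Sf3a3, Snrpg, Snrpn and Snrpa were below by 1.88, 1.07, 0.94 and 0.59. The Sm protein gene Snrpb was above by 1.41, but this rests on overventilation array 3, and control arrays 2 and 3 were at the floor.

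Of 29 glycolysis and hypoxia genes 5 lay above all controls and 0 below, and of 29 genes of fatty acid oxidation and lipid handling 0 lay above and 6 below. Hk2, the inducible hexokinase, read 2.17, 1.44 and 1.35 against 0.07, 0.64 and -0.71, a difference of 1.65 ± 0.43 or 3.14-fold. Hk1 read 0.99, 0.78 and 2.45 against 0.32, -0.21 and -0.11. Pfkfb3, which makes the activator of phosphofructokinase, read 0.87, 1.59 and 3.11 against -0.09, 0.33 and -0.24, 3.63-fold higher. Pgk1 and Ldha were above by 1.02 and 0.70. The other 24 members overlapped the controls, and the median was -0.08 and turned to 0.05 without control array 1. At an unadjusted p under 0.05 there were 4 members higher and 4 lower, and 13 of the 29 differences were positive. Without array 2, 5 lay above and 6 below, where all genes gave 13.9% and 20.7%, and 2 lay below without control array 1, 2 or 3 or overventilation array 1. The regulator Hif1a and its targets Vegfa and Slc2a1 were low on arrays 1 and 3 alone: Hif1a read -3.31, 0.70 and -4.63, Vegfa -7.50, -0.09 and -4.68, and Slc2a1 -3.29, 0.24 and -3.32.

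Among fat-handling genes Eci2, an isomerase of unsaturated fatty acid breakdown, read -1.63, -0.65 and -2.32 against controls between -0.01 and 0.01, a difference of -1.53 ± 0.40 or 2.89-fold lower. Acadl, the long-chain acyl-CoA dehydrogenase, read -0.82, -0.72 and -1.53 against -0.13, 0.29 and -0.16, 2.03-fold lower. Lpl, the lipoprotein lipase, read -0.60, -0.93 and -1.41 against 0.62, -0.10 and -0.52, and Eci1 and the coactivator Ppargc1b were below by 0.81 and 0.46. Etfb, which takes electrons from acyl-CoA dehydrogenases, was low on arrays 1 and 3 (-3.54 and -3.59) and at -0.35 on array 2. The list's median was -0.23, and -0.07 without control array 1. Fat tissue markers, given above, were high on control arrays 1 and 2, and of the 5 tested Retn lay below all controls, at the floor on all 3 overventilated arrays. Without control array 3, 4 of the 5 lay below, where 15.8% of all genes did. Their part in the counts for fat-handling genes was not tested.

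**Figure D4:**
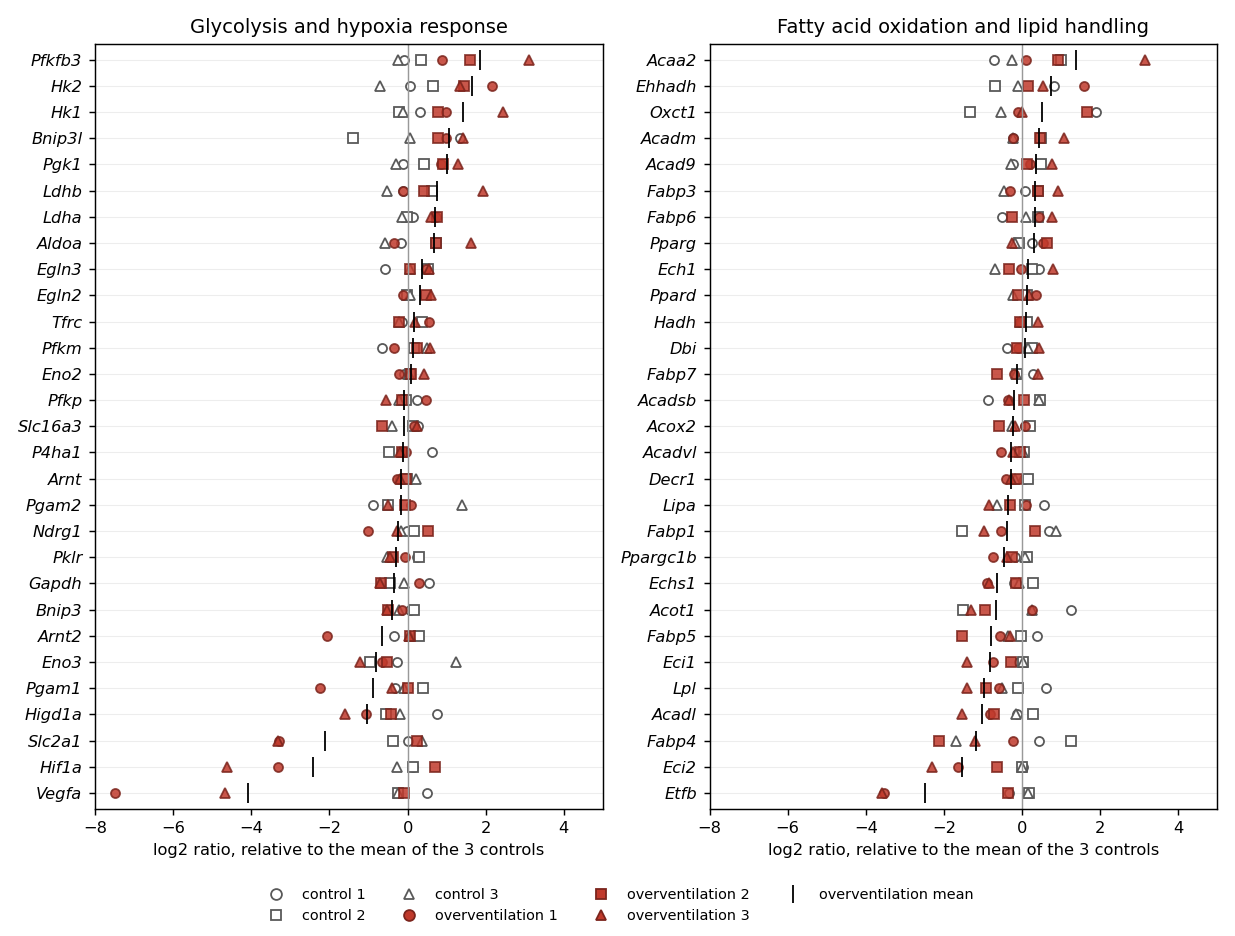
Log2 ratios on each array for all 29 tested genes of glycolysis and hypoxia response and all 29 of fatty acid oxidation and lipid handling, ordered by mean difference; open symbols are the 3 controls, filled symbols the 3 overventilated arrays and the bar their mean. Pfkfb3, Hk2 and Hk1 lead the left panel, and Hif1a, Vegfa and Slc2a1 lie far below on overventilation arrays 1 and 3 and near the controls on array 2.

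In cholesterol and fatty acid synthesis 1 of 29 genes lay above and 4 below. Chka, the first enzyme of phosphatidylcholine synthesis, read 1.00, 1.10 and 1.79 against 0.06, 0.18 and -0.24, 2.46-fold higher. Chpt1, the last enzyme of the same path, read -1.80, -1.25 and -1.80 against 0.79, 0.07 and -0.86 and was at the floor on overventilation arrays 1 and 3, so its difference of -1.61 is an underestimate. Gpam, Tm7sf2 and Fdps were below by 1.01, 0.58 and 0.64. Of 39 tricarboxylic acid cycle and mitochondrial import genes 5 lay above and 6 below. Tomm20, a receptor of the outer membrane import pore, read 0.63, 1.03 and 1.29 against -0.14, 0.10 and 0.04, and the fusion protein Mfn1 read 1.24, 1.39 and 1.98 against -1.16, 1.19 and -0.03. The prohibitin Phb2 read -1.56, -0.58 and -2.64 against 0.33, -0.12 and -0.21, and Tomm34 and Idh2 were below by 1.12 and 1.01. Nampt, which makes NAD from nicotinamide and marks injured lung, read 1.20, 2.02 and 2.93 against -0.89, 1.09 and -0.20, 4.14-fold higher. It belongs to 28 genes of polyamine, nucleotide and one-carbon metabolism, of which 3 lay above and 3 below. Of 19 metallothionein, iron and acute phase genes, the ferritin light chain Ftl1 was above at 1.53, 1.62 and 3.96 against 0.01, 0.94 and -0.96, and Hp below by 0.21 ± 0.42.

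Apoptosis regulators had the highest share below the controls, 9 of 42, with 3 above. Cflar, the caspase-8 inhibitor FLIP, read 2.26, 1.68 and 3.02 against 0.54, 0.35 and -0.88, a difference of 2.32 ± 0.53 or 4.99-fold higher. The death receptor Tnfrsf10b was above by 0.78 and Bcl2l11 (BIM) by 0.40. Among those below Aifm1, the mitochondrial flavoprotein AIF, read -1.49, -0.83 and -1.94 against -0.10, 0.38 and -0.27, 2.67-fold lower. Siva1 read -1.49, -0.86 and -2.09 against 0.08, -0.36 and 0.28, and Casp2 read -2.07, -0.95 and -3.86 against -0.13, -0.16 and 0.29. The adaptors Fadd and Cradd, the kinase Dapk1 and the caspase Casp6 were below by 0.75, 0.68, 1.24 and 1.38. Bag1 and Faim, which protect cells, were also below. Leaving out any 1 array gave 9 to 13 members below and 3 to 9 above, where all genes gave 13.3% to 20.7% below and 11.3% to 18.7% above.

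Of 42 p53 target and DNA repair genes 5 lay above and 7 below, 11.9% and 16.7%, and 30 overlapped. Plk2, a kinase induced by p53, read 1.51, 2.33 and 2.58 against -0.66, 0.86 and -0.20, 4.41-fold higher, and the growth arrest genes Gadd45a and Gadd45g were above by 0.69 and 1.93. Pold1 and Pold2, which are subunits of DNA polymerase delta, read -1.81, -2.05 and -1.67, and -0.86, -1.05 and -0.91, against controls of -0.34 to 0.24 and -0.39 to 0.21. Xpa, which verifies damage in nucleotide excision repair, read -1.14, -1.05 and -1.01 against -0.14, 0.34 and -0.20, 2.09-fold lower. The 3 genes varied little among the overventilated arrays. Rad1 was below by 0.98, Neil1 by 1.59 and Ercc4 by 0.28, and Prkdc rests on control array 2. Members that overlapped include the p53 targets Cdkn1a and Sesn1, with differences of 0.27 and -0.29, and the repair genes Ercc1 and Brca1, with -1.55 and 0.69. Of 12 circadian clock genes Bhlhe40, a repressor also induced by stress, read 0.90, 0.79 and 1.66 against 0.06, -0.05 and -0.01, and the other 11 overlapped.

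The lowest genes showed a pattern of their own. In 125 genes overventilation arrays 1 and 3 both lay more than 1.5 below all 7 other arrays, LPS arrays included. The medians of these genes were -2.94 on array 1, -0.19 on array 2 and -3.13 on array 3, and between -0.22 and 0.06 on the other 6 arrays. The pattern held for 8 of the 12 lowest genes and for 53 of the 535 genes below all controls (9.91%). Nr2f2, the venous endothelial and mesenchymal factor COUP-TFII, read -4.29, -1.57 and -5.33 against -0.27, -0.35 and 0.62, a difference of -3.73 ± 0.80 or 13.3-fold lower, and array 2 lay below the controls too. Atp5l, a subunit of ATP synthase, read -4.77, -0.50 and -4.94 against -0.34, -0.09 and 0.43. Bag1, a co-chaperone, read -4.84, -0.20 and -4.43 against -0.02, -0.14 and 0.16. Cops2, a COP9 signalosome subunit, read -3.66, -0.29 and -4.99 against 0.06, 0.12 and -0.17. For the last 3 genes array 2 lay at most 0.165 below the lowest control. Cstf2t, Col6a3, Ndufc1 and Ube2q1 had the pattern too. Whether it comes from the lungs or from the measurement was not tested.

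**Figure D5:**
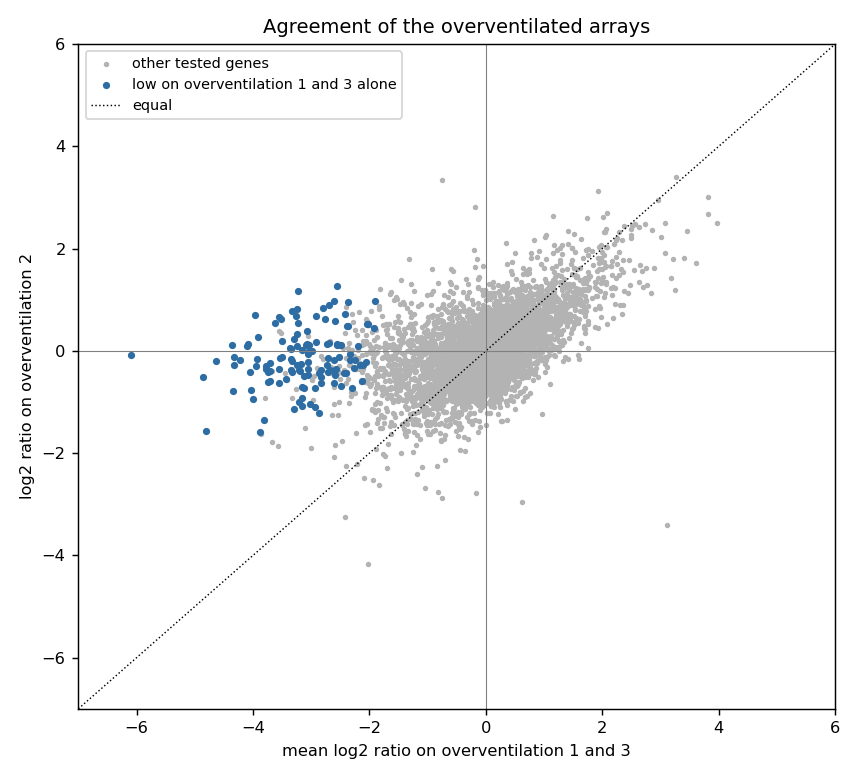
For each of the 5089 tested genes, the log2 ratio on overventilation array 2 against the mean of arrays 1 and 3, with the control mean at 0 and the dotted line marking equal values. The 125 genes low on arrays 1 and 3 alone (blue) lie at the left with a median of -0.19 on array 2, apart from the main cloud along the diagonal.

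The remaining 4 of the 12 lowest genes were Ndufa5, Mrps15, Fkbp3 and Ltbp4. Ndufa5, a complex I subunit, read -3.19, -1.63 and -4.52, Mrps15, a mitochondrial ribosomal protein, -2.26, -1.79 and -5.07, and Fkbp3, a nuclear prolyl isomerase, -3.12, -1.86 and -4.01. LPS array 2 was as low for these 3 genes, at -4.83, -6.00 and -4.99, while LPS arrays 1 and 3 read between -1.29 and 0.88. Low values were frequent on LPS array 2. It stood more than 1.5 below all other arrays at 291 tested probes, against 41 for overventilation array 3. Its low values are thus not read as a response to LPS. The array stays in the shared estimate of spread and in the contrast with LPS. Ltbp4 read -3.21, -0.92 and -4.38, and -3.04 on LPS array 2. The 482 genes below all controls without the pattern had medians of -0.88, -0.71 and -1.22 on arrays 1 to 3.

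Genes that rest on 1 array show how far a single array can carry a mean. Gadd45b, a stress gene of the same family as Gadd45a, read 0.91, 1.43 and 5.43 against -0.29, 0.04 and 0.25, and its difference of 2.59 was 1.17 without array 3. Cav1, the caveolae coat protein that senses membrane tension, read 0.32, 1.11 and 2.96 against -0.30, 0.05 and 0.25, with 0.71 left without array 3. Ninj1, which ruptures the membranes of dying cells, read 0.31, 0.67 and 3.64, and its difference of 1.54 was 0.49 without array 3. Ly6e and Snrpb leaned on the same array, and Tnni2 on control array 3.

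Overventilation was also set against LPS, which shares no control array in this contrast. No probe passed limma's test (0% of 5710 at an adjusted p of 0.05, lowest 0.4943), and 543 had an unadjusted p under 0.05. Among the 159 named genes 58 had no overlap between the 3 overventilated and the 3 LPS arrays, where 11.4% of all tested genes had none, and since the named genes were chosen for their distance from the controls their share is a description. Of the 12 highest genes only Tnfrsf12a, Gsta2 and Sgk1 had no overlap with LPS. The others reached overventilation values on an LPS array, such as Akap12, at 3.245 on LPS array 2 and 2.844 on overventilation array 1. Gsta2 stood 2.48 ± 0.49 above LPS, which read -0.28, 0.61 and 0.89. Srsf5 stood 1.38 ± 0.39 above LPS values of 0.47, 0.47 and 0.17. Tubb6 and Plxna2 differed in this respect: Tubb6 on LPS arrays read -0.48, 1.51 and 0.95, all below its overventilation values, while Plxna2 reached 2.13 on LPS array 2. Pbx2 on LPS arrays read -0.96, -0.85 and -0.84, between the control and the overventilation values, and Heyl read -0.87, -1.01 and -1.10, within the overventilation range on 2 arrays.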

How the data were processed

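Mouse lung RNA was measured on 9 arrays. The values deposited by the authors are ratios on a linear scale, with the mean log2 value of the controls at 0 for each probe, as tested on the values. Array maker, dyes, scanner and normalization: not given in the sources used here. Log2 was taken. At 4690 probes 2 or more arrays held 1 fixed pattern, read as each array's floor. At these probes values below the highest floor (a ratio of 2.222) were raised to it, and the control mean was subtracted afresh. Tested probes had no known floor or were above the highest floor on 3 or more arrays. Gene symbols came from the platform annotation (8983 probes with 1 symbol, 1 with several, 1028 with none). A gene is its probe above the floor on most arrays, then the lowest probe number.

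The fit used limma 3.58.1 (R 4.3.3) and all 9 arrays, with Benjamini-Hochberg adjustment over 5710 probes, as checked on simulated data. The 3 arrays per group limit the precision.

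Named genes were the 12 highest and 12 lowest differences without overlap that do not rest on 1 array, up to 4 members of each of 39 lists by smallest p, and the 6 largest that rest on 1 array. Other members named for completing a list, and the promoter motifs, were chosen after values were seen. The members and lists were chosen with earlier results of these data known, and 1 list is not reported here. Marker lists held 12 cell or tissue types. T and B cell (10 tested), red cell (3), smooth muscle (7), macrophage (6), mesothelial (2) and liver (1) markers had means whose ranges overlapped between the groups.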

Additional observations from a re-analysis of the deposited data

How the results depend on the processing

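Under 9 alternatives and the omission of each array the difference of every named gene kept its sign where it could be computed. For the omission of an array this was fixed in advance, since the named genes were chosen for having no overlap between the groups. It was also fixed for the other probe filters, the fit without LPS arrays, the replicate block, array weights and lone values set to missing. Only floors left as deposited, median centring and quantile normalization could have turned a sign. List medians moved by more than the spread between overventilated arrays in 71 of 585 cases. Quantile normalization gave 164 higher and 237 lower probes at an unadjusted p under 0.05, and 312 higher and 310 lower without overlap. With lone values set to missing 1 probe passed the adjusted threshold. Leaving out 1 array gave 0 to 290 probes past it, 191 to 504 higher and 292 to 674 lower at an unadjusted p under 0.05, and 644 to 1064 higher and 754 to 1177 lower without overlap. The 290 came without overventilation replicate 2, where 40 named genes passed. Fewer arrays make non-overlap easier by construction. The share of higher among probes with an unadjusted p under 0.05 was 41.6% and moved to 60.1% without overventilation replicate 1, to 31.9% without replicate 2 and to 51.8% without control replicate 2. The higher count at that p was 354 with all arrays, 193 without control replicate 3 and 191 without overventilation replicate 3. The replicate block (paired fit) gave 0 past the threshold and 522 higher and 678 lower at an unadjusted p under 0.05. Same-numbered arrays' deviations correlated at 0.508, 0.133 and 0.033, and those of arrays with unlike numbers at -0.432 to 0.279. The main fit did not take the numbers as pairs, and whether same-numbered arrays share a factor was not tested. Ratios hold no signal over background, so how near a probe without a known floor lay to it is unknown.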

Other observations

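Genes of protein turnover and traffic, not described so far, lay close to the background of 9.2% above and 10.5% below all controls. Of 63 genes of the ubiquitin system 8 lay above and 7 below. Uchl1, a deubiquitinase of neuroendocrine cells, read 0.91, 1.05 and 3.15 on overventilation arrays 1 to 3 against -0.14, 0.26 and -0.11 on the controls, 3.25-fold higher. Nedd4l, which removes the epithelial sodium channel, read 1.38, 2.08 and 1.46 against 1.27, -1.48 and 0.21. Its opponent Sgk1 was among the highest genes. Fbxl12, an F-box protein, read -1.24, -1.62 and -1.54 against 0.10, 0.16 and -0.26, 2.76-fold lower. Of 65 vesicle traffic genes 7 lay above and 3 below. Rab7, of late endosomes, read 1.09, 1.06 and 1.79 against 0.30, 0.04 and -0.34, and Arf1, which buds Golgi vesicles, read 1.36, 0.92 and 1.98 against 0.36, 0.17 and -0.53. Both stood above their LPS values on all 3 arrays.

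Of 55 lysosome and autophagy genes 5 lay above and 3 below. Becn1, which starts autophagosomes, read 0.67, 0.76 and 0.83 against -0.01, 0.46 and -0.45, and the cathepsin Ctsc read 1.73, 1.14 and 1.04 against 0.51, 0.27 and -0.78. The cathepsin Ctsb lay below at -1.69, -0.24 and -2.09. Of 47 histone and chromatin genes 3 lay above and 3 below, and Hdac5 and Hat1 of those above rest on overventilation array 3. The polycomb protein Phc2 read 1.79, 1.54 and 2.93 against 1.12, -1.09 and -0.03, and Hmgn3, a nucleosome binding protein, was low on arrays 1 and 3 alone, at -3.10 and -3.38.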
